A study of Homo sapiens with 12 samples.

Results

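The HOX genes of the 4 human clusters were examined in A375, a human melanoma cell line with mutant BRAF. Members were all genes of the deposited table whose symbol is HOXA, HOXB, HOXC or HOXD followed by a number, which gave 39 of 26475 genes: 11 of the HOXA, 10 of the HOXB, 9 of the HOXC and 9 of the HOXD cluster. Cells were kept for 24 h with DMSO (the solvent), with XL413 at 1 µM (an inhibitor of the replication kinase CDC7), with GSK343 at 1 µM (an inhibitor of the histone methyltransferase EZH2), or with GSK343 and XL413 together, each at 1 µM. Each of the 4 groups had 3 libraries of polyadenylated RNA, called biological replicates in the labels, so p-values measure the spread between these libraries of 1 line. No label gives a measurement of histone methylation, and the RNA counts do not show how far EZH2 was inhibited.

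HOX genes encode homeodomain transcription factors that assign position along the body axis, and their order within a cluster follows the order of the body regions in which they act. Low paralog numbers serve head and neck regions, and high numbers serve the lower trunk, limbs and urogenital tract. Polycomb repressive complex PRC2, whose catalytic subunit is EZH2 or EZH1, places methyl groups on lysine 27 of histone H3 and keeps HOX genes silent where they are not used, while trithorax proteins keep used HOX genes active.

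Libraries held 31553205 to 39079931 expected counts, of which 12141 to 15654 fell on HOX genes. The second library of the combination stood apart: the SD across genes of its log2 deviation from the rest of its group was 0.274, against 0.130 to 0.175 in the other 11 libraries. The median HOX gene lay 0.14 above its group in that library and between −0.07 and 0.05 in the others. Of the melanoma markers, SOX10 (296 to 370 CPM, counts scaled to a common library size), MITF (36.6 to 50.5 CPM) and AXL (338 to 486 CPM) were present. S100B was present too (22.0 to 28.4 CPM). TYR was at 0 in all 12 libraries, MLANA at 0.204 CPM or less, DCT at 0.143 or less and PMEL at 1.12 or less. Among the epithelial genes KRT18 was at 519 to 607 CPM and KRT8 at 46.1 to 55.0 CPM. The others were near 0, with CDH1 at most at 0.172, EPCAM at 0.224 and KRT19 at 0.379 CPM. The fibroblast genes COL1A1 (52.5 to 113 CPM), COL3A1 (20.1 to 37.8), DCN (5.93 to 9.31) and LUM (3.7 to 5.02) had counts. The leukocyte markers PTPRC and CD3E were at or near 0. The part of these markers in the HOX levels was not tested, and in bulk RNA fewer cells expressing a gene and less RNA per cell cannot be told apart.

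In DMSO, HOX RNA came mainly from the HOXB and HOXC clusters. To compare genes, levels were divided by the length of the longest annotated transcript, giving CPM per kilobase (kb). The HOXB cluster (chromosome 17, a span of 201 kb) summed to 72.3 ± 1.12 CPM per kb (SD, n = 3), 39.09% of the HOX sum of 185 CPM per kb. The HOXC cluster (chromosome 12, 117 kb) followed at 70.8 ± 0.920 CPM per kb, or 38.2%, and the libraries of both sums overlapped. The HOXA cluster (chromosome 7, 107 kb) reached 28.0 ± 0.269 CPM per kb and the HOXD cluster (chromosome 2, 98.0 kb) 13.9 ± 0.766 CPM per kb, far below the other two. By position in the cluster, genes of paralog numbers 1 to 3 summed to 38.0 CPM per kb, those of 4 to 8 to 76.4 and those of 9 to 13 to 70.8, so neither end was silent.

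A few genes carried much of this level. HOXB2, which patterns the hindbrain and neural crest, was highest at 27.1 ± 1.61 CPM per kb in DMSO, and HOXC10, a gene of the lumbar spinal cord and hindlimb region, was next at 23.7 ± 0.299. Together these 2 genes made up 27.5% of the HOX sum, and the 5 highest genes made up 46.5%. HOXB7, described in melanoma as an activator of FGF2, followed at 14.98 ± 0.264 CPM per kb, ahead of HOXC8 (10.3 ± 0.522) and HOXC4 (9.98 ± 0.112), 2 genes whose libraries overlapped. HOXA10, known in the uterus and in blood cells, led the HOXA cluster at 8.72 ± 0.0637 CPM per kb, and HOXD13, the digit and genital gene, led the HOXD cluster at 5.36 ± 0.251. Among 14488 tested genes with a known length, HOXB2 stood at the 81.5th percentile of level and HOXC10 at the 79.5th, whereas HOXA13 stood at percentile 5.53. At 1 CPM per kb or more were 9 HOXB, 8 HOXC, 6 HOXA and 3 HOXD genes. Of all members, 11 lay between 0.1 and 1 CPM per kb, and HOXD12 and HOXB1 lay below 0.1.

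**Figure D1:**
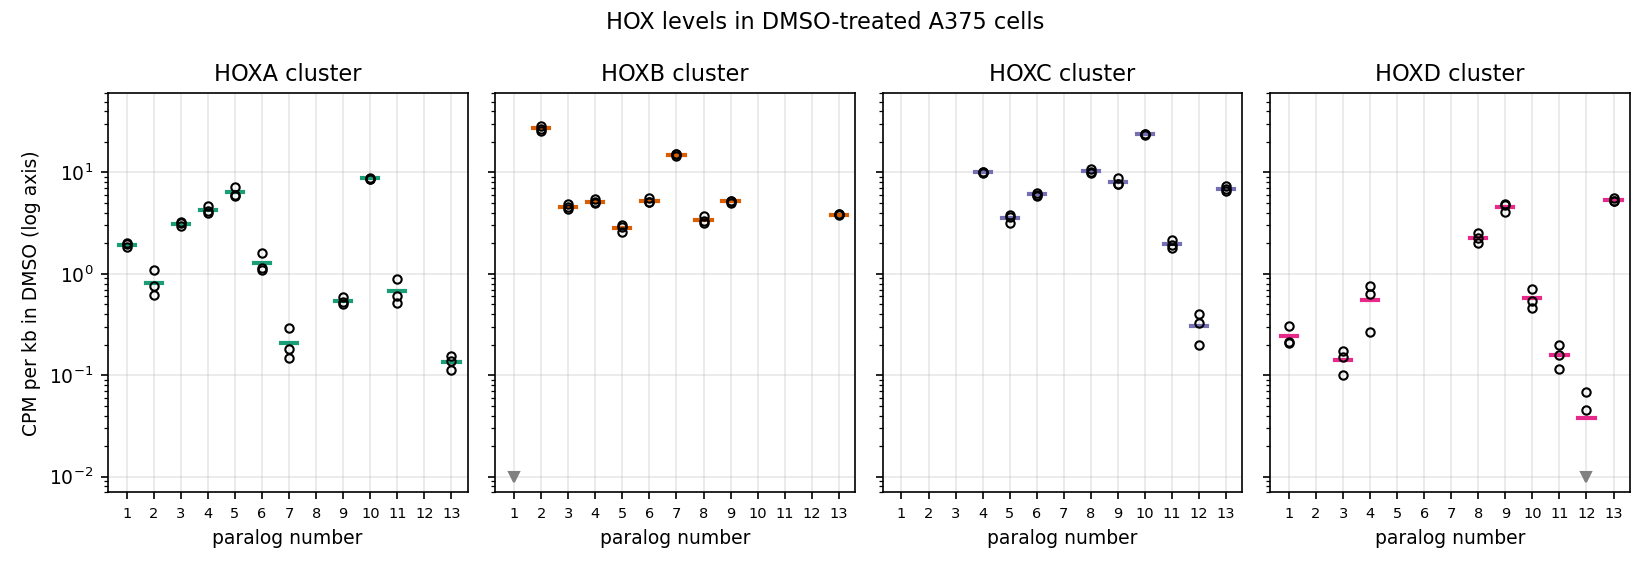
Level of each HOX gene in the 3 DMSO libraries, in CPM per kb on a log axis, against its paralog number, with 1 panel per cluster. Circles are libraries, lines are means, and triangles mark libraries at 0 (all 3 for HOXB1, 1 for HOXD12). HOXB2 and HOXC10 stand highest, and HOXD13 stands far above its neighbours HOXD12 and HOXD11.

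Neighbouring genes differed widely in level. HOXD13 and HOXD12 lie next to each other on chromosome 2 (176092891 to 176095938 and 176099730 to 176101193 of hg38). In the DMSO libraries HOXD13 had 418, 397 and 386 counts, and HOXD12 had 3, 2 and 0. HOXB1, the hindbrain gene at the end of the HOXB cluster (chromosome 17, 48528526 to 48531001), had 0 counts in all 12 libraries, next to HOXB2 at the top of the order. The starts of HOXB1 and HOXD12 are shown as the lowest members and that of HOXD13 as the highest of its cluster, though it ranked only 11 of 39. That of HOXA6 is shown because it is the only member with a called change. Each sequence runs 5′ to 3′ on the gene's own strand, from 250 bases before to 50 bases after the RefSeq start (RefSeq, build GRCh38.p14), with capitals marking CpG dinucleotides. The windows are chr2:176092471-176092770 on the plus strand (HOXD13), chr2:176099545-176099844 on the plus strand (HOXD12), chr17:48530962-48531261 on the minus strand (HOXB1) and chr7:27147725-27148024 on the minus strand (HOXA6).
HOXD13: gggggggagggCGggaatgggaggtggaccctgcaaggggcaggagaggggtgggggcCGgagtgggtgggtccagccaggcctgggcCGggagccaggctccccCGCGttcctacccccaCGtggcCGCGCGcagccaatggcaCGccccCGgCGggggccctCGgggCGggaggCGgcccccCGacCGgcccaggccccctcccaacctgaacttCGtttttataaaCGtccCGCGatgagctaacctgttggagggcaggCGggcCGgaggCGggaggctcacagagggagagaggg
HOXD12: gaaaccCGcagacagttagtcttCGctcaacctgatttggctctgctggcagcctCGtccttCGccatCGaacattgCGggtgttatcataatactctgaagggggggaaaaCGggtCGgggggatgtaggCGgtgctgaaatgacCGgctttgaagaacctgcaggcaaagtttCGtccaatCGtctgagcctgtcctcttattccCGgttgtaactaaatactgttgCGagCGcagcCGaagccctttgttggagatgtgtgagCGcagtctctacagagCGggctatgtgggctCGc
HOXB1: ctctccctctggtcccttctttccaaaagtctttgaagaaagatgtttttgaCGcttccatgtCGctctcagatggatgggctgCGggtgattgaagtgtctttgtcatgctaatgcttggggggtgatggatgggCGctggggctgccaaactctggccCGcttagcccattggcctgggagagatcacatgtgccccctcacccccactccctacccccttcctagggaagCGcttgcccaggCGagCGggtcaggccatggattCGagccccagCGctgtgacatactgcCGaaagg
HOXA6: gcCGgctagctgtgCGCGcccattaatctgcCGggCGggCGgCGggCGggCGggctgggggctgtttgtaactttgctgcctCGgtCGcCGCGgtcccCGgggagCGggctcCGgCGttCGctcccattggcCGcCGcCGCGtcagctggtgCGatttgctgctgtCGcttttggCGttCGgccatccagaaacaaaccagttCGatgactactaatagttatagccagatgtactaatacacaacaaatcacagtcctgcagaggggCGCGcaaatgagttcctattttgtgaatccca

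The HOXD13 window holds 24 CpG, that of HOXD12 19, that of HOXB1 11 and that of HOXA6 29. CpG content thus did not order these genes by level: HOXA6, at 1.28 CPM per kb in DMSO, had more CpG than HOXD13. A window was found for 20 of the 39 members, with HOXC4 and HOXC5 sharing 1. None was found for HOXB2, HOXC10, HOXB7 or HOXC8, the genes at the top of the order of levels. Their median was 22.5 CpG, against 14 over 35116 promoters of the same length, and 16 of the 20 lay above that median. The range ran from 4 CpG in HOXD4 to 44 in HOXA13, a gene near the bottom of the order of levels. The motif TATAAA, searched on both strands, was found in 4 windows (HOXA3, HOXA9, HOXA10 and HOXD13) and in 11.5% of all promoters. TGATNNAT, the form bound by HOX proteins with their PBX partners, was found on either strand in 3 (HOXA2, HOXB1 and HOXD11) and in 7.40% of all promoters, and no window held both motifs.

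Against this baseline, GSK343 alone raised no HOX gene past the test. Of the 39 members, 36 passed the filter on low counts, and 0 were called higher and 0 lower in GSK343 against DMSO (edgeR quasi-likelihood test, Benjamini-Hochberg adjusted p under 0.05 over 15443 genes). The background was 1.17% of all genes called, 0.725% higher and 0.44% lower. At an unadjusted p under 0.05 stood 1 member, HOXB2, and it was lower, against 14.3% of all genes. The median log2 fold change of the 36 members was 0.0048, beside 0.0011 over all tested genes, and 20 members lay above 0. In DESeq2 and limma-voom 0 members were called too.

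The same comparison in the presence of XL413 gave no call either. For the combination against XL413, 0 of 36 members were called, with 0.784% of all genes called, and the 3 members at an unadjusted p under 0.05 (HOXA6, HOXB6 and HOXC10, against 15% of all genes) were all lower. The median member lay at −0.036. The mean of both GSK343 effects, with and without XL413, is called the averaged effect here and has the most replicates behind it. It gave 0 calls among 36 members while 6.55% of all genes were called, 3.18% higher and 3.37% lower. At an unadjusted p under 0.05 stood 2 members, HOXA6 and HOXB2, both lower, against 22.9% of all genes. Of the members 18 lay above and 18 below 0, and the median was −0.00054, beside 0.0041 over all genes. The interaction, the GSK343 effect with XL413 minus the effect without it, gave 0 calls among the members and 0 among all 15443 genes (0% called). At an unadjusted p under 0.05 were 0 members and 413 genes, or 2.67%.

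The intervals state how large a rise these libraries could have missed. In the averaged effect the upper 95% limit, taken per gene and not adjusted over genes, was below a 1.5-fold rise for 34 of 36 members and below 2-fold for all 36 tested, with a median of 1.12-fold. The widest belonged to HOXA7, at 1.75-fold. For GSK343 against DMSO alone the limit was below 1.5-fold for 30 members and below 2-fold for 35, with HOXA7 at 2.48-fold. In the presence of XL413 it was below 1.5-fold for 31 members and below 2-fold for 36, with HOXD10 highest at 1.96-fold.

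**Figure D2:**
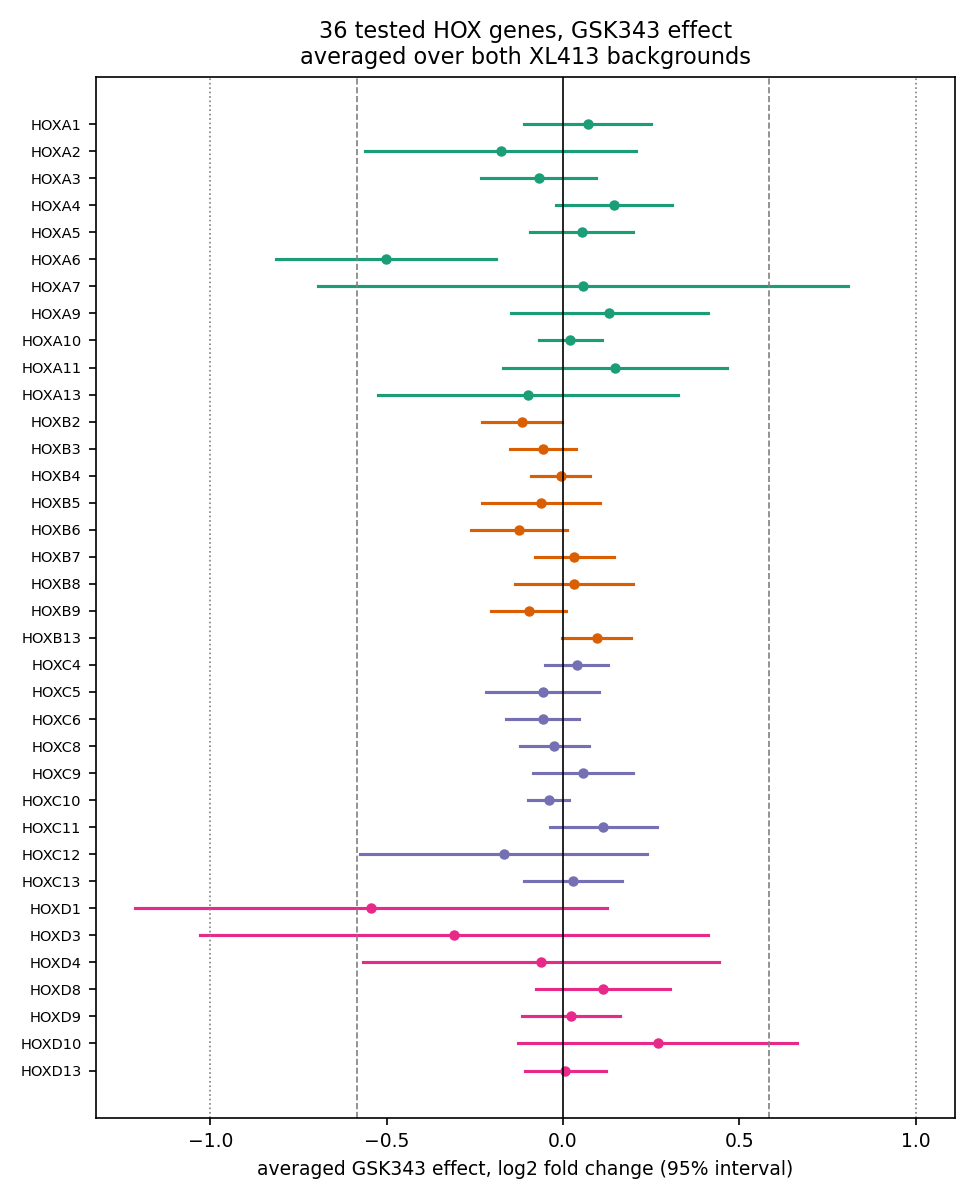
Averaged GSK343 effect of the 36 tested HOX genes as log2 fold change, with 95% intervals as lines and 1 colour per cluster. Dashed lines mark 1.5-fold and dotted lines 2-fold changes in either direction. All upper limits lie inside 2-fold, and the interval of HOXC10 is the shortest.

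The upper limits differed between clusters. In the averaged effect the highest upper limit was 1.147-fold among 9 HOXB genes and 1.202-fold among 9 HOXC genes. Among 7 tested HOXD genes it reached 1.59-fold and among 11 HOXA genes 1.75-fold. The cluster medians of the log2 fold change were 0.053 for HOXA, −0.057 for HOXB, −0.024 for HOXC and 0.0060 for HOXD. For the summed level, relative to DMSO, GSK343 left the HOXA sum at 1.03, HOXB at 0.952, HOXC at 0.998 and HOXD at 0.992 times its value. The combination relative to XL413 gave 1.01, 0.978, 0.993 and 1.04 in the same order. The HOXB sum was 70.4, 68.7 and 67.4 CPM per kb with GSK343, below all DMSO libraries (71.6, 71.8 and 73.6). Most HOXB genes did not share this fall. In GSK343 against DMSO 5 of the 9 tested lay above 0 and 4 below, with a median log2 fold change of 0.0032. The lowest was HOXB2, at −0.20. HOXB2 was at 25.6, 26.998 and 28.8 CPM per kb with DMSO and at 24.97, 24.16 and 21.9 with GSK343. The sum of paralog numbers 1 to 3, which holds HOXB2 too, lay below DMSO in all GSK343 libraries, at 0.900 times its value. Numbers 4 to 8 stood at 1.01 and 9 to 13 at 0.999 times. With XL413 present the HOXB sum and that of numbers 1 to 3 (0.970 times) overlapped with XL413 alone. A rise smaller than the upper limits above is not excluded by these intervals, and one that needs more than 24 h was not measured here.

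Of the 2 highest genes of the HOXB and of the HOXC cluster, HOXC10, HOXB7 and HOXC8 had averaged estimates close to 0, and HOXB2 was lower with GSK343 alone. HOXC10 was at 46.0, 46.3 and 45.2 CPM with DMSO, 45.5, 46.0 and 44.6 with XL413, 46.8, 46.6 and 44.6 with GSK343 and, last, 42.8, 43.0 and 42.5 with the combination. All 12 libraries lay close together, with the combination below the rest. Its averaged GSK343 effect was −0.04 ± 0.0270 on the log2 scale (SE, adjusted p = 0.400 by edgeR's quasi-likelihood test), with an upper limit of 1.01-fold, and this interval was the shortest of the 36. HOXB7 was at 20.7, 20.1 and 20.8 CPM with DMSO, 21.6, 19.9 and 21.1 with XL413, 21.9, 19.2 and 20.7 with GSK343 and, last, 20.2, 24.3 and 20.6 with the combination. Its groups overlapped, and the value that stood out, 24.3, was in the combination library that stood apart. HOXC8, a gene of the brachial spinal cord, was at 20.5, 19.1 and 18.6 CPM with DMSO, 19.0, 18.9 and 19.4 with XL413, 18.9, 19.0 and 18.9 with GSK343 and, last, 17.3, 20.7 and 18.6 with the combination. These groups also overlapped, and the upper limits were 1.10-fold for HOXB7 and 1.05-fold for HOXC8 in the averaged effect.

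HOXB2 was the member nearest to a change with GSK343 alone, and it was lower. It was at 40.0, 42.2 and 45.0 CPM with DMSO, 43.3, 46.1 and 42.5 with XL413, 39.0, 37.7 and 34.2 with GSK343, then 40.9, 47.9 and 39.8 with the combination. All GSK343 libraries lay below all DMSO libraries, while the combination overlapped with XL413. The log2 fold change of GSK343 against DMSO was −0.20 ± 0.0745 (SE, unadjusted p = 0.0201, adjusted p = 0.237 by edgeR's quasi-likelihood test). Without the second combination library, which is not in this contrast but enters the shared estimate of the spread, HOXB2 was called lower (log2 fold change −0.19, adjusted p = 0.0495). Without that library it was called in the averaged effect too (−0.16, adjusted p = 0.0183). Its effect with XL413 present was −0.04 ± 0.0738, and the difference between both effects was not called (0.16 ± 0.105, unadjusted p = 0.147). Members whose GSK343 and DMSO libraries did not overlap numbered 1 higher (HOXA9) and 3 lower (HOXB2, HOXB9 and HOXD1), against 11.2% and 14% of all genes.

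**Figure D3:**
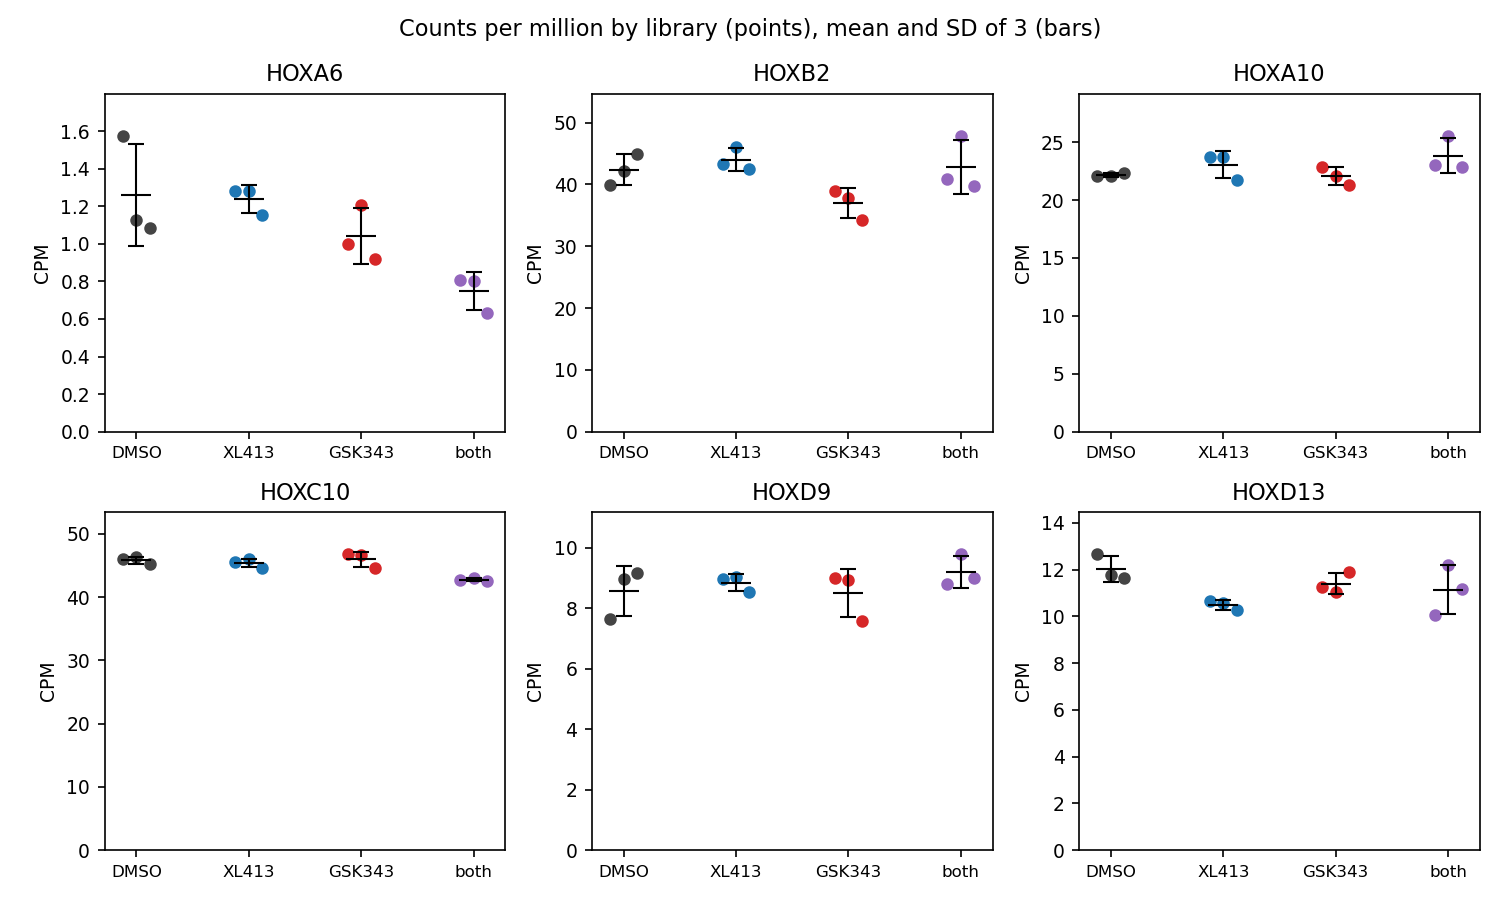
CPM of 6 HOX genes in each library, with points for libraries, horizontal bars for the mean and whiskers for the SD of 3 libraries, by group ("both" is GSK343 with XL413). HOXB2 lies lower with GSK343 alone, HOXA6 is lowest with both compounds, and HOXA10, HOXC10, HOXD9 and HOXD13 stay within a narrow range.

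The leading HOXA and HOXD genes did not differ with GSK343 beyond their spread. HOXA10 was at 22.1, 22.0 and 22.3 CPM with DMSO, 23.7, 23.7 and 21.7 with XL413, 22.9, 22.1 and 21.3 with GSK343 and, last, 23.0, 25.5 and 22.9 with the combination. HOXA5, which is needed in lung development, was at 9.63, 10.0 and 11.9 CPM with DMSO, 12.6, 11.8 and 11.5 with XL413, 11.2, 12.4 and 10.3 with GSK343 and, last, 11.7, 13.1 and 11.2 with the combination. The GSK343 libraries of both genes overlapped with their controls, and the averaged effect allowed a rise of at most 1.08-fold for HOXA10 and 1.147-fold for HOXA5. HOXD13 was at 12.7, 11.8 and 11.6 CPM with DMSO, 10.7, 10.6 and 10.3 with XL413, 11.2, 11.04 and 11.9 with GSK343 and, last, 10.1, 12.2 and 11.2 with the combination. HOXD9, a limb and spinal cord gene, was at 7.63, 8.95 and 9.15 CPM with DMSO, 8.95, 9.04 and 8.52 with XL413, 8.98, 8.94 and 7.58 with GSK343 and, last, 8.80, 9.78 and 8.996 with the combination. Here too GSK343 libraries overlapped with controls, and the upper limits of the averaged effect were 1.09-fold and 1.12-fold.

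The largest positive estimates in the averaged effect belonged to HOXD10 and HOXA11, both known from limb development, and neither was called. In GSK343 against DMSO the largest were those of HOXA9 (0.35 ± 0.186, log2, SE, adjusted p = 0.426 by edgeR's quasi-likelihood test) and HOXA7 (0.27 ± 0.483), also not called. HOXA9, a gene known from blood stem cells and leukaemia, was at 1.09, 1.04 and 1.204 CPM with DMSO, 1.43, 1.31 and 1.49 with XL413, 1.27, 1.38 and 1.59 with GSK343 and, last, 1.36, 1.58 and 1.03 with the combination. Its GSK343 libraries lay above DMSO, but the combination overlapped with XL413. HOXD10 was at 0.909, 1.42 and 1.08 CPM with DMSO, 0.933, 0.737 and 1.15 with XL413, 1.09, 1.04 and 1.62 with GSK343 and, last, 1.12, 1.58 and 1.03 with the combination. HOXA11 was at 2.06, 1.39 and 1.17 CPM with DMSO, 1.40, 2.02 and 1.94 with XL413, 1.66, 1.44 and 1.78 with GSK343 and, last, 2.23, 2.13 and 1.86 with the combination. All groups of these 2 genes overlapped between GSK343 and its control. The averaged effect was 0.27 ± 0.184 for HOXD10 and 0.15 ± 0.148 for HOXA11 (log2, SE), with upper limits of 1.59-fold and 1.38-fold. Among positive averaged estimates the lowest unadjusted p was that of HOXB13, whose estimate was smaller, at 0.096 ± 0.0454. It was not called (unadjusted p = 0.0538, adjusted p = 0.227 by edgeR's quasi-likelihood test), and its upper limit was 1.14-fold. The most negative estimate was that of HOXD1, a gene of low level, at −0.55 ± 0.310 (adjusted p = 0.314 by edgeR's quasi-likelihood test). HOXD1 had 14, 14 and 20 counts with DMSO, 19, 10 and 16 with XL413, 2, 10 and 15 with GSK343 and, last, 16, 15 and 10 with the combination. The first GSK343 library, with 2 counts, was the lowest of the 12.

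HOXA6 was the only member called in any comparison, and it fell. It was at 1.57, 1.13 and 1.08 CPM with DMSO, 1.28, 1.28 and 1.15 with XL413, 0.998, 1.21 and 0.917 with GSK343 and, last, 0.806, 0.804 and 0.630 with the combination. The combination libraries lay below all other libraries, and GSK343 alone overlapped with DMSO. Counts behind these levels were 52, 38 and 36 with DMSO and 26, 31 and 22 with the combination. In the combination against DMSO HOXA6 fell by 0.75 ± 0.208 on the log2 scale (SE, adjusted p = 0.0309 by edgeR's quasi-likelihood test), where 13.9% of all genes were called, 6.69% higher and 7.25% lower. A single call among 36 members is no more than that background. The call was lost without the first DMSO library (−0.56, adjusted p = 0.131), without the second DMSO library (adjusted p = 0.0612), without the third combination library (adjusted p = 0.0763) and in a fit of only the compared groups (adjusted p = 0.0994). Its averaged GSK343 effect was −0.50 ± 0.144 (adjusted p = 0.0567), and its interaction was −0.45 ± 0.289 (unadjusted p = 0.144). HOXA6 lies at chromosome 7, 27145396 to 27150603, and 105 bases, or 10.6%, of its exons are also exons of the antisense gene HOXA-AS3. Its counts were whole numbers in all 12 libraries, whereas 10 of the 39 members held a value that was not whole, the mark of reads divided between genes.

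XL413 alone left the HOX genes uncalled as well. Of 36 members 0 were called and 1 had an unadjusted p under 0.05, beside 0.427% of all genes called and 13.7% at an unadjusted p under 0.05. That member was HOXD13, at −0.19 ± 0.0754 on the log2 scale (unadjusted p = 0.0232, adjusted p = 0.277 by edgeR's quasi-likelihood test), and its XL413 libraries all lay below its DMSO libraries. Of the 11 HOXA genes 10 had a positive estimate, with a cluster median of 0.081, against 47.7% of all genes above 0. The other medians were 0.051 for HOXB (6 of 9 above 0), −0.015 for HOXC (4 of 9) and −0.11 for HOXD (3 of 7). The summed level with XL413 was 1.07 times that of DMSO for HOXA, 1.03 for HOXB, 0.998 for HOXC and 0.970 for HOXD. In the combination against DMSO 19 members lay above and 17 below 0, with a median of 0.015. The comparisons with DMSO share the same 3 control libraries, so their estimates are not independent of each other.

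For the 3 members removed by the filter, counts set the limit. HOXB1 had 0 counts in all groups, and a floor of 3 counts over a group's 3 libraries corresponds to 0.0284 to 0.0300 CPM. Expression of HOXB1 below that level was not detectable at this depth. HOXD11 had summed counts of 24 with DMSO, 23 with XL413, 22 with GSK343 and 14 with the combination. The ratio of GSK343 to DMSO was 0.874 (exact 95% interval 0.467 to 1.63), and that of the combination to XL413 was 0.582 (0.277 to 1.18). HOXD12 had 5, 4, 6 and 5 counts in the same order, and its ratios of 1.14 (0.291 to 4.74) and 1.19 (0.257 to 6.02) left a wide range. These intervals cover counting error only, and reads amplified by PCR are not independent molecules.

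The spread between libraries exceeded what counting alone gives for most members. Over the 38 members with any count, the coefficient of variation (CV) of CPM across all 12 libraries was 1.37 times the value from counting alone in the median. This CV holds differences between groups as well as between replicates. It was below 2 times for 37 members, and the exception was HOXB2 at 3.44 times. The members with the lowest counts, HOXD12 and HOXD11, had ratios of 0.889 and 1.30.

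**Figure D4:**
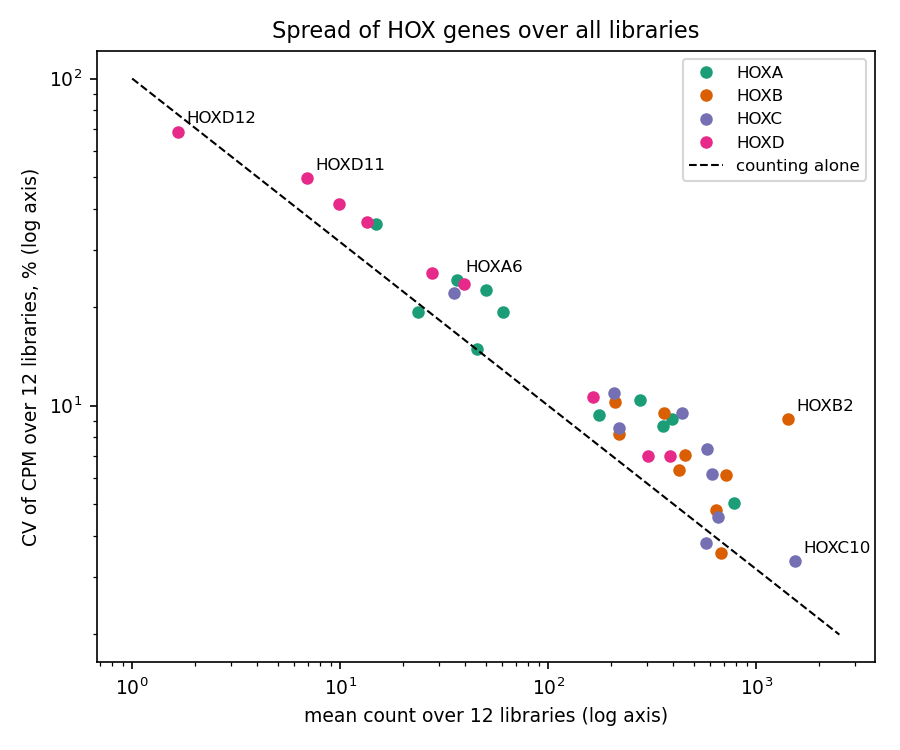
CV of CPM over all 12 libraries, in percent, against the mean count of each HOX gene with any count, both on log axes. The dashed line is the CV that counting alone would give. HOXB2 lies farthest above the line, at 3.44 times it.

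Reads of overlapping genes limit some members. Sums of a member and its overlapping partner were whole in 12 of 12 libraries for HOXA7 with HOXA-AS3, HOXA10 with HOXA10-AS and HOXC13 with HOXC13-AS, within 0.015 of a whole number. For HOXA4 with HOXA-AS2 and for HOXC4 with HOXC6 the sums were whole in 10 of 12. HOXA7 shares 74.7% of its exonic bases with HOXA-AS3 on the other strand and had 2.34 to 20.07 expected counts per library. The part of this division of reads in the HOXA7 limit was not tested. The strand setting of the counting is not given in the sources used here. HOXA-AS3, HOXA10-AS and HOXC13-AS lie on the strand opposite to their members, so reads of these pairs were divided across strands. Antisense reads can thus be part of the level of a member with such an overlap, and their part was not tested. HOXA11, for example, shares 23.8% of its exonic bases with HOXA11-AS. The readthrough HOXA10-HOXA9 was listed at 0 in all libraries.

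Genes that act with HOX genes or lie beside them were counted for context. Among 9 tested genes of the TALE class, whose homeodomain proteins bind DNA with HOX proteins, 1 rose, 0 fell and 8 were not called in the averaged effect, against 3.18% of all genes higher and 3.37% lower. MEIS3 was at 2.45, 2.02 and 2.05 CPM with DMSO, 1.90, 2.02 and 2.05 with XL413, 2.84, 2.67 and 2.56 with GSK343 and, last, 2.98, 2.80 and 3.07 with the combination. Both GSK343 groups lay above their controls. The averaged effect was 0.44 ± 0.0851 (log2, SE, adjusted p = 0.0108 by edgeR's quasi-likelihood test), and the call held without any 1 of the 12 libraries (adjusted p up to 0.0364). MEIS1, another cofactor, had an averaged effect of 0.28 ± 0.0940 and was not called (adjusted p = 0.0964), and PBX2 had one of −0.09 (adjusted p = 0.0671). In the combination against DMSO, where 6.69% of all genes were higher and 7.25% lower, MEIS3 rose by 0.44 (adjusted p = 0.0286) and PBX2 fell by 0.15 (adjusted p = 0.0235) on the log2 scale. The PBX2 call was lost on leaving out each of the 3 DMSO libraries in turn (adjusted p up to 0.0770), and the MEIS3 call without the second or the third DMSO library and without the first or the third combination library (adjusted p up to 0.116).

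Of 18 tested genes that flank the clusters, 3 rose and 0 fell in the averaged effect, against 3.18% of all genes higher, and this list was drawn up with results of these data known. SKAP2, which encodes a signalling adaptor, lies 97.8 kb before the HOXA cluster (chromosome 7, 26667062 to 26995239). It was at 25.8, 26.2 and 26.3 CPM with DMSO, 29.7, 29.1 and 30.7 with XL413, 30.7, 30.9 and 34.3 with GSK343 and, last, 32.1, 30.1 and 33.5 with the combination. GSK343 libraries lay above DMSO, but the combination overlapped with XL413. The averaged effect was 0.19 ± 0.0397 (SE, adjusted p = 0.0133 by edgeR's quasi-likelihood test) and held without any 1 library. In GSK343 against DMSO SKAP2 rose by 0.29 ± 0.0564 (adjusted p = 0.0248), and each fit that left out a library of either group lost this call (adjusted p up to 0.114). MTX2, a mitochondrial import gene 78.5 kb after the HOXD cluster, rose by 0.20 (adjusted p = 0.0206), a call lost without the second DMSO, the first XL413 or the first GSK343 library (adjusted p up to 0.0668). SNX10, 719 kb from the HOXA cluster, rose by 0.19 (adjusted p = 0.0298), a call that held without 6 of the 12 libraries only. Of the 18 genes 4 rose and 2 fell in the combination against DMSO, against 6.69% and 7.25% of all genes, and the SKAP2 call (0.29, adjusted p = 0.00639) held without any 1 library.

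**Figure D5:**
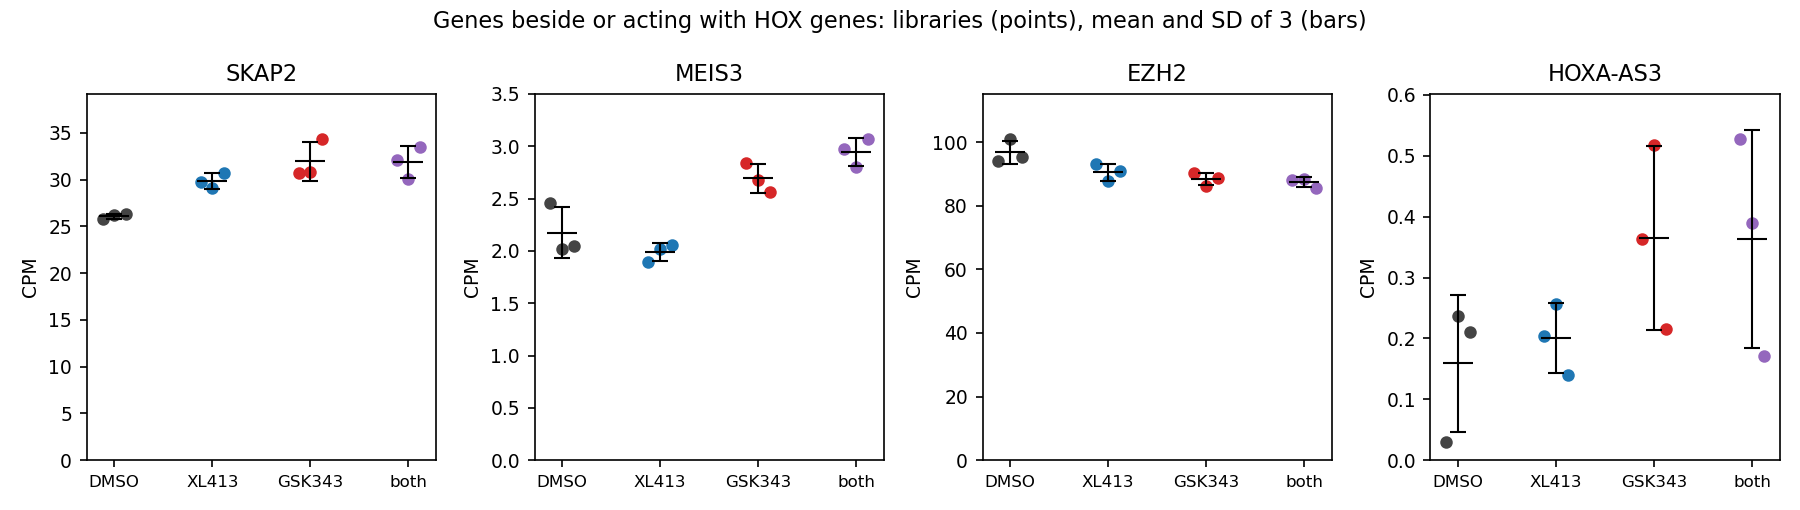
CPM by library of SKAP2, MEIS3, EZH2 and HOXA-AS3, with points for libraries, bars for the mean and whiskers for the SD of 3 libraries. MEIS3 lies higher in both GSK343 groups, SKAP2 lies lowest with DMSO, EZH2 lies highest with DMSO, and HOXA-AS3 varies widely at levels under 1 CPM.

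Among 14 tested noncoding RNAs of the clusters, 0 rose and 0 fell in the averaged effect, against 3.18% and 3.37% of all genes. HOXA-AS3 was at 0.0303, 0.237 and 0.211 CPM with DMSO, 0.204, 0.256 and 0.141 with XL413, 0.363, 0.518 and 0.216 with GSK343 and, last, 0.527, 0.389 and 0.172 with the combination. The groups overlapped, and the averaged effect of 1.01 ± 0.395 was not called (adjusted p = 0.148 by edgeR's quasi-likelihood test). Reads of HOXA-AS3 were divided with HOXA7, which limits this estimate. Both genes together were at 0.578 ± 0.226 CPM (SD) with DMSO and 0.629 ± 0.168 with XL413. With GSK343 they were at 0.871 ± 0.167 and with the combination at 0.738 ± 0.160, and this sum was not tested. HOTAIR, transcribed within the HOXC cluster and described as a partner of PRC2, had an averaged effect of 0.30 ± 0.139 (adjusted p = 0.213). HAGLROS, in the HOXD cluster, had one of 0.28 ± 0.105 (adjusted p = 0.136). HAGLROS was the 1 RNA of the 14 called in the combination against DMSO, higher by 0.48 ± 0.149 (adjusted p = 0.0496), and 11 of 12 fits that left out a library lost this call (adjusted p up to 0.176).

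Few Polycomb and trithorax genes were called in the averaged effect, and more of them were lower in the combination against DMSO. EZH2, the target of GSK343, was at 94.2, 101 and 95.4 CPM with DMSO, 93.0, 87.7 and 90.8 with XL413, 90.2, 86.3 and 88.9 with GSK343 and, last, 88.1, 88.4 and 85.7 with the combination. The averaged effect was −0.09 ± 0.0293 (adjusted p = 0.0838 by edgeR's quasi-likelihood test). In the combination against DMSO EZH2 fell by 0.15 ± 0.0414 (adjusted p = 0.0329), a call lost without any DMSO library or the third combination library (adjusted p up to 0.127). EZH1, EED and SUZ12 had averaged effects of −0.02, −0.04 and −0.04, none of them called. RBBP4, another PRC2 subunit, averaged 145 CPM with DMSO, 149 with XL413, 134 with GSK343 and 138 with the combination. Its averaged effect was not called (adjusted p = 0.0506 by edgeR's quasi-likelihood test), but it was called lower in 2 of 12 fits that left out a library. Of 12 tested PRC2 genes 2 fell in the averaged effect, against 3.37% of all genes: MTF2 by 0.13 and PHF19 by 0.10 on the log2 scale, calls that each held without 4 of the 12 libraries only. Of 18 tested PRC1 genes 1 rose (PCGF5, 0.13, held without 2 of the 12 libraries), against 3.18% of all genes, and of 12 demethylase and trithorax genes 1 fell. That gene was WDR5, a subunit of histone H3 lysine 4 methyltransferase complexes, at −0.13 ± 0.0285 (adjusted p = 0.0181), a call lost without the first DMSO library (adjusted p = 0.0515) and under upper quartile scaling (adjusted p = 0.0624).

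With XL413 alone against DMSO, 0 of the 12 demethylase and trithorax genes were called (0.427% of all genes), with a list median of −0.092 and 1 above 0. The combination against XL413 also called 0 of them (0.784% of all genes), with a list median of −0.14 and 1 above 0. In the combination against DMSO 5 of the 12 demethylase and trithorax genes were lower and 0 higher, against 7.25% and 6.69% of all genes, with a list median of −0.24 and 11 of 12 below 0. The histone H3 lysine 27 demethylase KDM6B fell by 0.50 (adjusted p = 0.00632 by edgeR's quasi-likelihood test), the lysine 4 methyltransferase KMT2B by 0.44 (adjusted p = 0.0107) and WDR5 by 0.19 (adjusted p = 0.00925), and these 3 calls held without any 1 library. KMT2D fell by 0.55 (adjusted p = 0.0367) and MEN1 by 0.15 (adjusted p = 0.0286), calls that held without 6 and 8 of the 12 libraries. In the second combination library, which stood apart, KMT2D was at 52.1 CPM, against 90.0 and 96.0 in the other combination libraries. KMT2B was at 46.9 (64.9 and 62.2), KDM6B at 18.3 (23.4 and 23.1) and KMT2A, not called, at 49.5 (96.3 and 99.0). MEN1 was also lowest there, at 72.9 CPM, but WDR5 was highest, at 112. The sizes of these falls and the list median include this library. Of the 18 PRC1 genes 5 were lower and 0 higher (CBX6, PCGF2, PHC1, CBX2 and PHC2), and 1 of the 12 PRC2 genes was lower (EZH2). CBX6, a chromobox subunit, fell by 0.28 (adjusted p = 0.00169) and held without any 1 library, and the other PRC1 calls held without 5 to 10 of the 12. CBX6 was also the 1 PRC1 gene called in XL413 alone against DMSO, lower by 0.22 (adjusted p = 0.0424), where 0.427% of all genes were called. Of 8 tested genes of retinoic acid and other HOX inputs 0 were called in the averaged effect. With the combination, 3 of these 8 were lower than with DMSO: the retinoid receptors RARA and RXRA and CYP26B1, an enzyme that breaks down retinoic acid. Each of these calls was lost without 1 or more single libraries (adjusted p up to 0.110). Beside these changes 1 of 36 HOX genes was called in the combination against DMSO, HOXA6.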

How the data were processed

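Per the submitters' processing notes, the authors used hg38, RSEM 1.2.15 and Bowtie2 2.1.0, and the deposited values are RSEM expected counts per gene, not scaled between libraries. Neither the annotation nor the strand setting is given in the sources used here. Libraries were strand-specific (dUTP), per the labels. Each column was matched to its group and replicate by the labels.

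Expected counts were rounded and analysed with edgeR 4.0.16 in R 4.3.3. Genes were kept by filterByExpr (minimum count 10, minimum total 15), which left 15443 genes, and scaled by TMM. All 12 libraries entered a quasi-likelihood model with a coefficient for each group (8 residual degrees of freedom), with two-sided tests and Benjamini-Hochberg adjustment, and calls at an adjusted p under 0.05. Standard errors follow from the log2 fold change and its F statistic. The script was tested on simulated data. CPM use effective library sizes. Lengths and positions come from GENCODE 29 (GRCh38) and promoter sequences from RefSeq.

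Members and lists were chosen with earlier results of these data known. Members named with values are the 2 highest per cluster by level per kb over all libraries, those called, those with the 2 highest and 2 lowest averaged GSK343 effects, and those filtered out. Of each context list up to 3 genes with the smallest p in the averaged effect are considered, with EZH2, EZH1, EED and SUZ12. Any other member or context gene named was chosen after its values were seen. Alternatives were RLE and upper quartile scaling, testing without a filter, a filter of 5 CPM in 3 or more libraries, limma-voom (limma 3.58.1), DESeq2 1.42.0, the replicate number as a block, only the compared groups, leaving out each library, and lengths from the union of exons.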

Additional observations from a re-analysis of the deposited data

How the results depend on the processing

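Of 98 alternative fits of the GSK343 effects, the XL413 effect and the interaction, 96 called no HOX gene. The other 2, both without the second combination library, called HOXB2 lower. Leaving out 1 library at a time gave 0 to 1 called members in GSK343 against DMSO, in the averaged effect and in the combination against DMSO, and 0 to 0 in the other comparisons. The combination against DMSO called 1 member, HOXA6, in 15 of 20 alternatives, 0 under the stricter filter, which removes HOXA6, and 0 with only the compared groups. The libraries do not pair by number (18 same-numbered pairs, correlations of deviations −0.155 to 0.138, 2 over 0.1, and 4 of 12 libraries correlating best with their own number). With the replicate block, 0 members were called in 5 comparisons and 1 in the combination against DMSO (HOXA6, −0.75, adjusted p = 0.0332).

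Of 223 values of named members in the averaged effect under alternatives, 212 kept direction and side of the threshold. Estimates near 0 reversed: without the second combination library HOXA10 (−0.0061), HOXB7 (−0.013), HOXD13 (−0.029) and HOXD9 (−0.0017). HOXD13 also reversed without the second (−0.0055) or the third DMSO library (−0.0087), the third XL413 library (−0.0025) or the third GSK343 library (−0.014), and HOXD9 without the first DMSO (−0.017) or second GSK343 library (−0.0021). Leaving out 1 library at a time, the highest values were 0.032 for HOXA10, 0.051 for HOXB7, 0.035 for HOXD13 and 0.057 for HOXD9. EZH1 reversed to 0.0059 under upper quartile scaling. The cause was not tested, but the values lie within 1 SE of 0. The highest upper limit ranged from 1.2499-fold to 2.07-fold in the averaged effect, from 1.38-fold to 3.59-fold in GSK343 against DMSO and from 1.31-fold to 2.47-fold with XL413 present, lowest under the stricter filter, which tests 25 members. The largest absolute median log2 fold change of all genes in any fit was 0.0405, in the combination against DMSO under upper quartile scaling (0.0060 in the main fit).

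With the union of exons as length, baseline sums were 26.1 CPM per kb for HOXA, 70.8 for HOXB and 67.4 for HOXC. Leaving out 1 DMSO library gave 27.9 to 28.2 for HOXA, 71.7 to 72.7 for HOXB, 70.4 to 71.3 for HOXC and 13.66 to 14.4 for HOXD.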
